A study of Homo sapiens with 18 samples.

Results

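The hydrolases of the lysosome lumen other than cathepsins, but with CTSA (cathepsin A) kept in, were represented by 36 genes. All were found by Ensembl identifier among the 57820 identifiers of the count table. They encode the glycosidases, sulfatases, lipases and peptidases of the lysosome interior, with the proteins that hold or present their substrates. By main substrate, 7 genes act on glycosphingolipids, 8 on glycosaminoglycans, 8 on glycoprotein glycans or glycogen, 6 on other lipids, 5 on proteins and peptides, and 2 on nucleic acids and phosphate esters. Of the 36 genes, 35 had enough counts to be tested. PPT2, a thioesterase gene (ENSG00000221988), was at 0 counts in every library, and 49.3% of its annotated exon length is shared with the readthrough gene PPT2-EGFL8.

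Lysosomal hydrolases are made at the endoplasmic reticulum, mostly tagged with mannose phosphate in the Golgi, and carried to the lysosome, where acid activates them. Each removes 1 kind of bond, so that a glycan, a lipid head group or a protein is taken apart by several enzymes in turn, and inherited loss of a single one leaves its substrate stored. Many of their genes are targets of the transcription factors TFEB, TFE3 and MITF, which mTORC1 holds in the cytoplasm when nutrients are plentiful. RagC, encoded by RRAGC, is a small GTPase that tethers mTORC1 and these factors to the lysosome surface.

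The cells were MDA-MB-231, a single human breast cancer line of mesenchymal character, labelled as wild type. They received siRagC1 or siRagC2, 2 siRNAs against RagC, or the control siRNA siCtrl, and RNA was taken 72 hours later to ask which genes change when mTORC1 is repressed. All 3 groups went through the same lipofection with the reagent Lullaby, and each held 6 libraries, 18 in all. The labels call the libraries biological replicates but do not state that each was a culture of its own, so a p-value here reflects the spread among these libraries, which may be technical. Library codes place replicates 1 and 2 of each group in a series D1103 and replicates 3 to 6 in a series D1221.

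Libraries held 14.8 M to 71.6 M counts. RRAGC itself lay between 12.3 and 31.9 CPM (counts scaled to a library of 1 M) with siRagC1 and between 19.3 and 40.8 CPM with siRagC2, against 60.6 to 67.9 CPM with siCtrl, without overlap. Of the line's markers, VIM, CD44, AXL and MSN were at 761 CPM or more in every library, ESR1 and PGR stayed under 0.17 CPM, and the epithelial markers CDH1, GATA3 and EPCAM had siCtrl means of 0.891, 8.69 and 15.6 CPM. The leukocyte and endothelial markers PTPRC, CD14 and CDH5 together reached at most 1.27 CPM. Mitochondrial genes took 2.55% (siRagC1 replicate 4) to 6.63% of the counts, and the D1103 libraries had the higher shares in each group. The 36 hydrolase genes summed to 2970 to 3815 CPM with siRagC1, 3087 to 3729 CPM with siRagC2 and 2771 to 3291 CPM with siCtrl, and in each group the D1103 libraries had the highest sums. RNA came from whole cultures, so that more cells expressing a gene and more RNA per cell cannot be told apart.

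With either RagC siRNA, hydrolase genes rose by small amounts, and they included genes of every substrate class but the glycosaminoglycans. With siRagC1, 10 of 35 tested genes passed an adjusted p of 0.05 as higher and 0 as lower. Over all 15307 tested genes 1.41% were called higher and 0.627% lower. With siRagC2, 10 were higher and 1, ARSB, was lower, against backgrounds of 1.87% and 1.36%. The median log2 fold change of the 35 genes was 0.15 with siRagC1 and 0.13 with siRagC2, where all tested genes had a median of 0.0051 and 0.00465. The fold change was positive for 30 genes with siRagC1 and for 32 with siRagC2, and for 51.7% of all tested genes with each siRNA. The comparisons share their control libraries.

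The genes higher with both siRNAs were GLB1, PSAP, GM2A, NEU1, NPC2, CTSA and DNASE2, 7 in all, where 0.771% of all tested genes were higher with both (and 0 hydrolase genes and 0.314% of all genes lower with both). HEXA, MANBA and TPP1 passed with siRagC1 only, and FUCA1, AGA and PLA2G15 with siRagC2 only. None of these 6 passed the direct test between the siRNAs, and 21 genes passed with neither. With the mean of both siRNAs against siCtrl, 13 genes were higher and 0 lower, against 2.72% and 2.23% of all genes. The changes were small throughout: the highest log2 fold change was 0.36 for NPC2 with siRagC1 and 0.38 for NEU1 with siRagC2, or 1.29-fold and 1.30-fold.

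These counts came from edgeR's quasi-likelihood test with a term for the code series and Benjamini-Hochberg adjustment over all tested genes. With the 12 D1221 libraries alone it called 0 hydrolase genes with either siRNA (13 and 12 were higher at an unadjusted p under 0.05, as were 3.9% and 5.44% of all genes, with medians of 0.12 with siRagC1 and 0.11 with siRagC2), and of all genes it called 0% and 0.00666% higher there, with 0.00666% and 0% lower. Without the term for the series, edgeR called 1 and 0 hydrolase genes higher (15 and 14 at an unadjusted p under 0.05, beside 5.82% and 5.78% of all genes) and 6 and 12 of all tested genes. D1103 alone gave 10 and 11 higher (2.12% and 3.82% of all genes) and 0 and 1 lower (1.30% and 3.28%). The siRagC1 count fell to 4 without siCtrl replicate 1 or siRagC1 replicate 2 (0.5% and 0.434% of all genes called higher), to 5 without siRagC1 replicate 1 (0.605%), and to 6 without siCtrl replicate 2 or 5 or siRagC1 replicate 3 or 4 (0.519% to 0.868%). The siRagC2 count fell to 5 without siRagC2 replicate 4 (0.804% of all genes). PSAP, GM2A, NEU1 and NPC2 with siRagC1, and PSAP, GM2A, NEU1, PLA2G15 and CTSA with siRagC2, passed in all 12 fits that left out 1 library of the comparison.

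**Figure D1:**
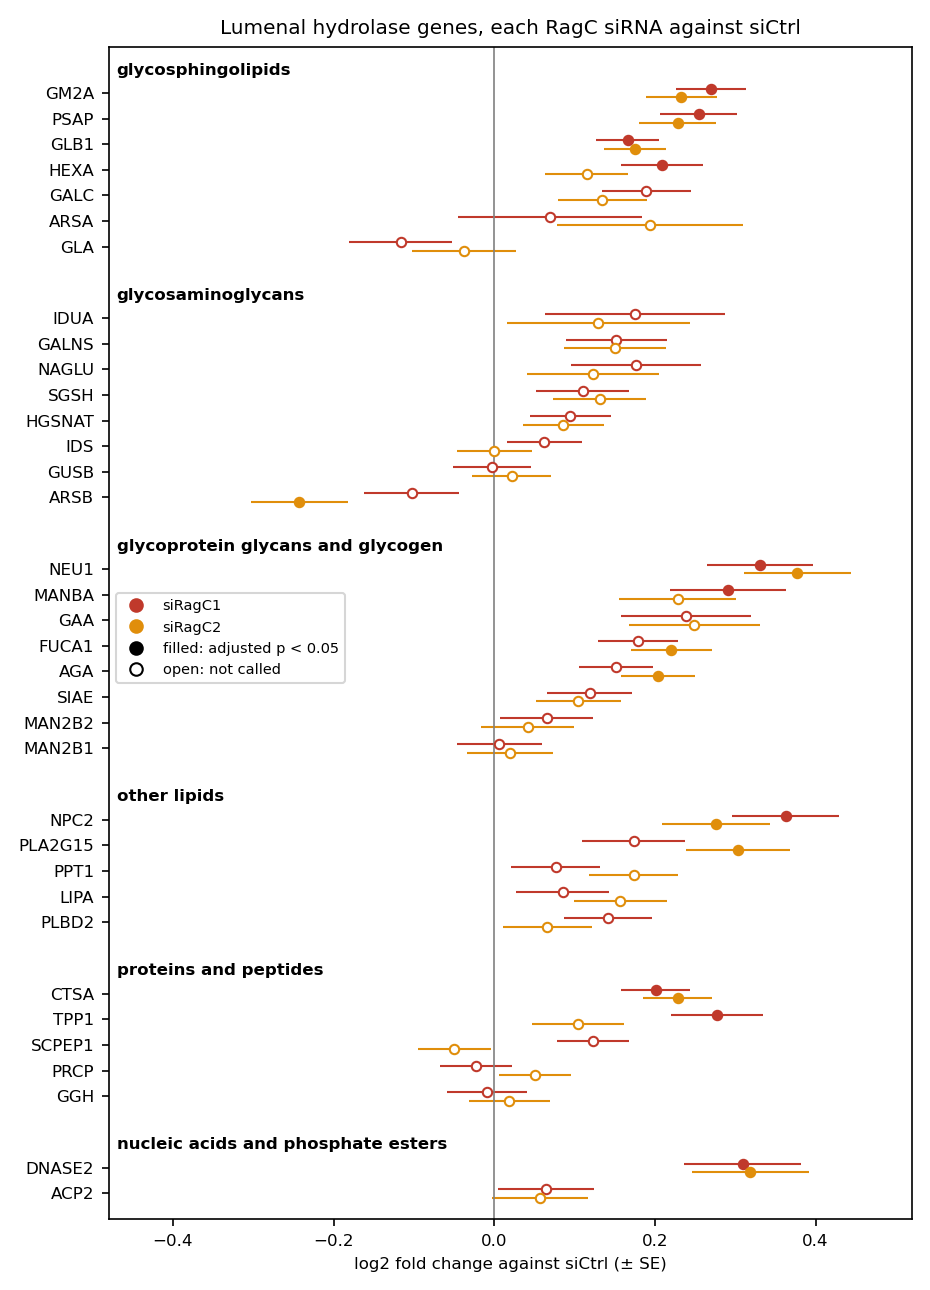
Log2 fold change against siCtrl (x axis, ± SE) of the 35 tested hydrolase genes, grouped by substrate class down the page, with siRagC1 in red and siRagC2 in orange and filled points for genes past an adjusted p of 0.05. Nearly all points lie right of 0, ARSB with siRagC2 (-0.24) is the one filled point to the left, and the glycosaminoglycan class has no filled point to the right.

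NEU1, CTSA and GLB1 encode proteins found together in 1 lysosomal complex, and each of these genes rose with both siRNAs. NEU1 (ENSG00000204386) is the sialidase that removes terminal sialic acids from glycoproteins. CTSA (ENSG00000064601) is a serine carboxypeptidase, also called cathepsin A or protective protein, that keeps NEU1 and GLB1 stable. GLB1 (ENSG00000170266) is the β-galactosidase that splits GM1 ganglioside and keratan sulfate.

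The lowest, median and highest NEU1 values were 24.2, 27.6 and 34.0 CPM with siRagC1, 24.9, 27.4 and 37.1 CPM with siRagC2, and 17.6, 23.2 and 24.5 CPM with siCtrl. Every siRagC2 library stood above every control, whereas 2 siRagC1 libraries overlapped the top controls and siCtrl replicate 6 lay well below the other controls. The log2 fold change was 0.33 ± 0.07 (SE; edgeR, adjusted p = 0.0124) with siRagC1 and 0.38 ± 0.07 (adjusted p = 0.00411) with siRagC2. CTSA had a lowest, median and highest value of 195, 214 and 294 CPM with siRagC1, 212, 219 and 292 CPM with siRagC2, and 172, 190 and 248 CPM with siCtrl. Its D1103 libraries were the highest of each group, so that the groups overlapped when both series were pooled. The log2 fold change was 0.20 ± 0.04 (adjusted p = 0.0187) with siRagC1 and 0.23 ± 0.04 (adjusted p = 0.00666) with siRagC2. GLB1 ran from 90.2 through 98.5 to 109 CPM with siRagC1 and from 89.4 through 97.3 to 113 CPM with siRagC2, against 80.9 through 87.5 to 96.9 CPM with siCtrl. The highest controls, both of D1103, exceeded the lower siRNA libraries, all of D1221. Its log2 fold change was 0.17 ± 0.04 (adjusted p = 0.0300) with siRagC1 and 0.18 ± 0.04 (adjusted p = 0.0172) with siRagC2, and with siRagC1 it passed in 5 of the 12 fits without 1 library.

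**Figure D2:**
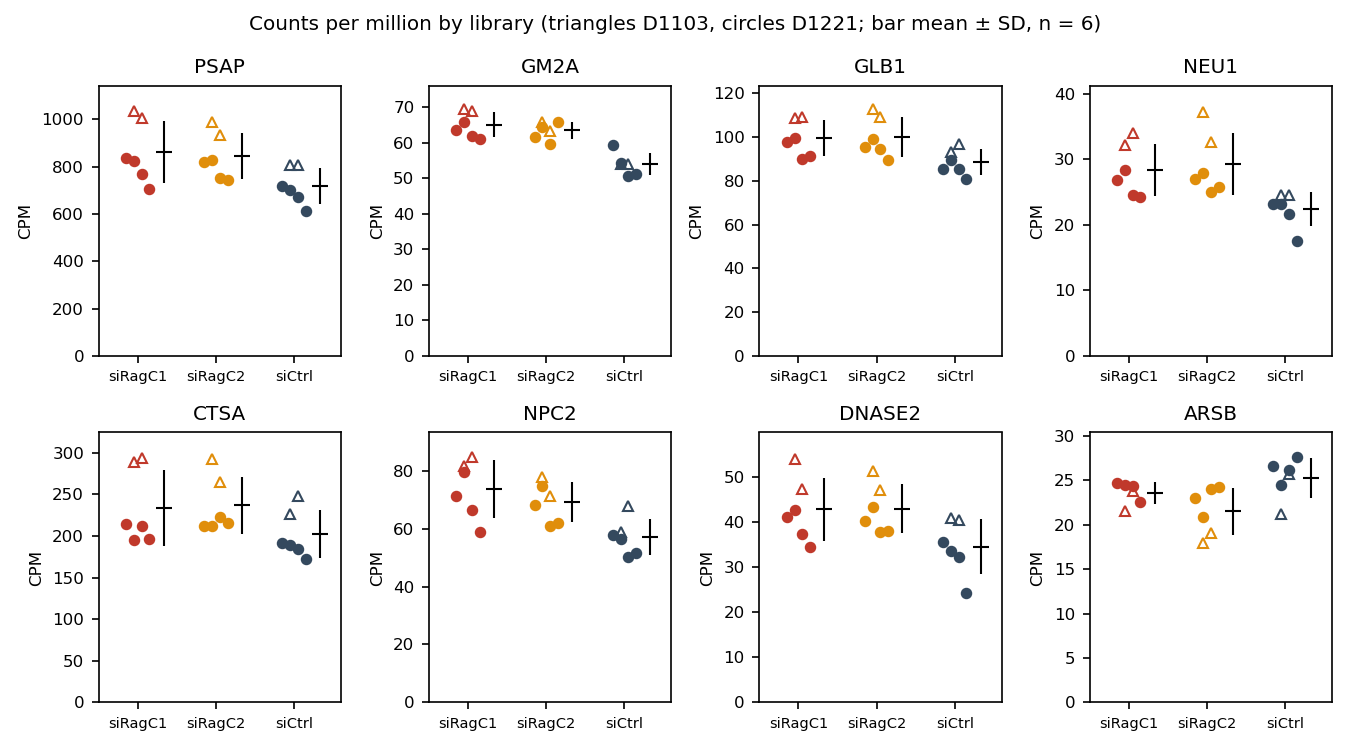
CPM (y axis, from 0) of the 7 genes called higher with both siRNAs and of ARSB in each library, with siRagC1, siRagC2 and siCtrl from left to right, triangles for D1103, circles for D1221 and bars for the mean ± SD of 6 libraries. In the first 7 panels most siRNA libraries lie above the controls of their own series, GM2A shows no overlap, and in the ARSB panel the siRagC2 libraries lie lowest, at 17.97 to 24.2 CPM.

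The promoters of the hydrolase genes were read for CACGTG, the palindromic E-box core that TFEB and its relatives bind, on both strands of the 300 bases from 250 before to 50 after each RefSeq start site (GRCh38.p14). A window was held for 28 of the 36 genes, and ARSA, GGH, HEXA, HGSNAT, MANBA, NAGLU, PSAP and SGSH had none. The core was present in 7 genes, or 25.0%, against 8.77% of all 27305 genes of the promoter reference and 12.3% of the 11013 tested genes with a window. All 7 genes also held TCACGTG, a longer form that overlaps the core. That form was found in 4.49% of all genes of the promoter reference and 7.17% of tested genes with a window. The core stood in 2 of the 10 genes with a window that were higher with either siRNA, NEU1 and CTSA, and in 5 of the 18 others, GAA, GALNS, PLBD2, SCPEP1 and ARSB. A match is a run of letters and was not shown to be bound in these cells. The windows of NEU1 and CTSA, which rose, of GAA, which passed with neither siRNA, and of ARSB, which fell with siRagC2, are given 5′ to 3′ on the strand of the gene, with the core in capitals. They lie at chr6:31862772-31863071 on the minus strand, chr20:45891085-45891384 on the plus strand, chr17:80101331-80101630 on the plus strand and chr5:78985909-78986208 on the minus strand, the last being 1 of 2 ARSB windows.
NEU1: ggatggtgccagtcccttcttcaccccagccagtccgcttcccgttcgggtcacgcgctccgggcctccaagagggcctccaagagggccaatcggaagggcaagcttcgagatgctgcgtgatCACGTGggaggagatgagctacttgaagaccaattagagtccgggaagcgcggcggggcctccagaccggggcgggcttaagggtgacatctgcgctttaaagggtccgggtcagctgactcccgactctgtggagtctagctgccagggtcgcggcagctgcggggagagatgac
CTSA: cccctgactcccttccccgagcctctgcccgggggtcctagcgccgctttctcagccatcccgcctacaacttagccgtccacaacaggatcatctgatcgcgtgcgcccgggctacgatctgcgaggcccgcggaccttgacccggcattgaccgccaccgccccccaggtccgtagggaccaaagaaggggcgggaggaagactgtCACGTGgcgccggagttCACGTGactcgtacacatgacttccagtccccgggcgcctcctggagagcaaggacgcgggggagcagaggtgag
GAA: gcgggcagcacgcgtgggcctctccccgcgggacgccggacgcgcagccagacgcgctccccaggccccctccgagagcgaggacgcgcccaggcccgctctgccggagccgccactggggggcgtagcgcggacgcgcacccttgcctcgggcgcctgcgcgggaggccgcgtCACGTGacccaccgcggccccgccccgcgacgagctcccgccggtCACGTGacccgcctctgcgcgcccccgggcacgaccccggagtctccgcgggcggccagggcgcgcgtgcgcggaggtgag
ARSB: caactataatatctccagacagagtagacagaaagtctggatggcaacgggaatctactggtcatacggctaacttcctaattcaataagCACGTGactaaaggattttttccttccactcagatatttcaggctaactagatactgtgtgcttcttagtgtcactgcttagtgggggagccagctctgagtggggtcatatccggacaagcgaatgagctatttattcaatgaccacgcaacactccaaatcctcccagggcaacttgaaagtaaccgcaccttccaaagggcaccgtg
The core began 126 bases before the start in NEU1, 42 and 25 bases before it in CTSA, 76 and 31 bases before it in GAA, and 160 bases before it in ARSB. The CTSA and GAA windows thus held the core 2 times each, as did GALNS, while NEU1, ARSB, PLBD2 and SCPEP1 held it 1 time; the other ARSB window held none.

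**Figure D3:**
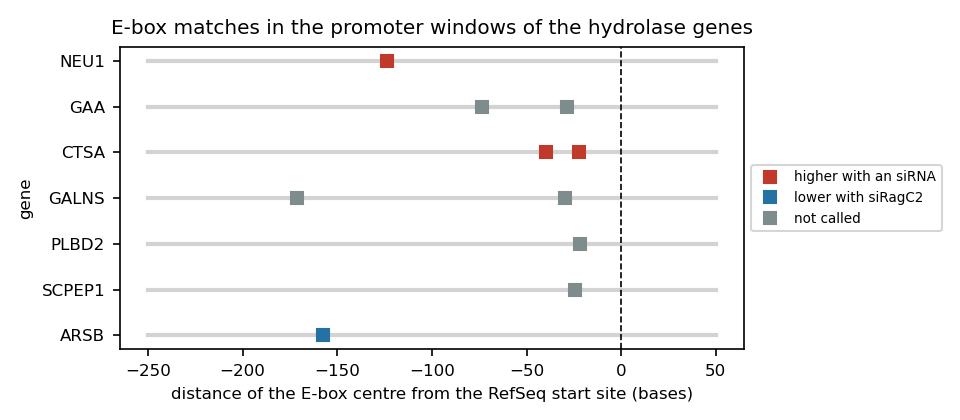
Position of each CACGTG match (squares, centre of the match) relative to the RefSeq start site (x axis, bases; dashed line at 0) in the 7 hydrolase genes that hold one, with grey lines for the windows. Red marks genes higher with an siRNA (NEU1, CTSA), blue the gene lower with siRagC2 (ARSB) and grey the 4 genes not called.

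By substrate class, the glycosphingolipid genes had 4 of 7 higher with siRagC1, 3 of 7 with siRagC2 and 0 lower. Of all tested genes 1.41% were higher with siRagC1 and 1.87% with siRagC2, and 0.627% and 1.36% were lower. The class medians were 0.19 with siRagC1 and 0.18 with siRagC2, and differences between classes were not tested. Summed over the class, the glycosphingolipid genes made 1167 ± 149 CPM with siRagC1, 1146 ± 111 CPM with siRagC2 and 991 ± 83.1 CPM with siCtrl (SD, n = 6 each), of which PSAP was the main part. PSAP (ENSG00000197746) is cut into the saposins, which lift sphingolipids out of membranes for the enzymes. Its lowest, median and highest values were 704, 832 and 1035 CPM with siRagC1, 743, 825 and 987 CPM with siRagC2, and 614, 711 and 807 CPM with siCtrl. The D1103 controls exceeded the 2 lowest libraries of each siRNA, and within each series every siRNA library but siRagC1 replicate 6 was above every control. The log2 fold change was 0.25 ± 0.05 (adjusted p = 0.00881) with siRagC1 and 0.23 ± 0.05 (adjusted p = 0.0121) with siRagC2.

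GM2A (ENSG00000196743) encodes the activator that presents GM2 ganglioside to hexosaminidase A. It stood at 61.0, 64.6 and 69.4 CPM (lowest, median, highest) with siRagC1, 59.8, 63.9 and 65.7 CPM with siRagC2, and 50.7, 54.03 and 59.3 CPM with siCtrl. No siRNA library fell to the level of any control. Its log2 fold change was 0.27 ± 0.04 (adjusted p = 0.00247) with siRagC1 and 0.23 ± 0.04 (adjusted p = 0.00687) with siRagC2. Across both series pooled, GM2A and AGA were the 2 hydrolase genes whose siRagC1 libraries all exceeded siCtrl (0.516% of all tested genes), and NEU1 joined them for siRagC2, making 3 (0.601%). For 0 genes did all libraries of an siRNA lie below siCtrl (0.314% of all genes with siRagC1 and 0.542% with siRagC2).

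HEXA (ENSG00000213614), the α-subunit of hexosaminidase A, averaged 33.0 ± 2.85 CPM with siRagC1, 31.0 ± 0.844 CPM with siRagC2 and 28.6 ± 1.91 CPM with siCtrl (SD, n = 6 each). It rose with siRagC1 (log2 fold change 0.21 ± 0.05, adjusted p = 0.0351, passing in 5 of 12 fits without 1 library), while with siRagC2 it had 0.12 ± 0.05 (adjusted p = 0.228). GALC, which splits galactosylceramide, had log2 fold changes of 0.19 ± 0.06 (adjusted p = 0.0746) with siRagC1 and 0.13 ± 0.06 (adjusted p = 0.192) with siRagC2. ARSA, which removes the sulfate of sulfatide, spread widely, over 11.02 to 24.2 CPM with siRagC1, 14.5 to 25.4 CPM with siRagC2 and 9.997 to 22.9 CPM with siCtrl, and had log2 fold changes of 0.07 ± 0.11 (adjusted p = 0.809) with siRagC1 and 0.19 ± 0.12 (adjusted p = 0.404) with siRagC2. GLA, the α-galactosidase that is lost in Fabry disease, was the one gene of the class with negative values, at -0.12 ± 0.06 (adjusted p = 0.369) with siRagC1 and -0.04 ± 0.06 (adjusted p = 0.825) with siRagC2. Without siRagC1 replicate 6, its highest library at 27.0 CPM, GLA passed as lower with siRagC1 (-0.18, adjusted p = 0.0495).

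The glycosaminoglycan enzymes take heparan, dermatan and keratan sulfate apart in turn. Of these 8 genes 0 were called higher with either siRNA by edgeR over all libraries, beside 1.41% and 1.87% of all tested genes. In D1103 alone HGSNAT passed as higher with siRagC2 (0.25, adjusted p = 0.0258). At an unadjusted p under 0.05 there were 2 with siRagC1 and 3 with siRagC2 in either direction, beside 17.1% and 18.5% of all tested genes. Their medians were 0.10 and 0.10, beside 0.0051 and 0.00465 for all genes. Of the 8 values 6 and 7 were positive, beside 51.7% of all tested genes with each siRNA. The class summed to 676 ± 82.1 CPM with siRagC1, 656 ± 60.4 CPM with siRagC2 and 641 ± 46.4 CPM with siCtrl (SD, n = 6 each). IDS was the main part of each sum. These SDs pool both code series, and the sums were not tested against each other. ARSB (ENSG00000113273), the sulfatase for dermatan and chondroitin sulfate, was the one hydrolase gene that fell. Its lowest, median and highest values were 21.5, 24.1 and 24.7 CPM with siRagC1, 17.97, 21.9 and 24.2 CPM with siRagC2, and 21.2, 26.0 and 27.7 CPM with siCtrl. With both series pooled, ARSB in 3 siRagC2 libraries lay below every control, the lowest of which was siCtrl replicate 1. The siRagC1 libraries then fell within the control range. Within each series every siRagC2 library lay below every control, and the siRagC1 libraries overlapped the controls. The log2 fold change was -0.24 ± 0.06 (adjusted p = 0.0294) with siRagC2 and -0.10 ± 0.06 (adjusted p = 0.394) with siRagC1. The siRagC2 call was lost without siRagC2 replicate 1, 2 or 4 (adjusted p = 0.0993, 0.0693 and 0.0864) and without siCtrl replicate 2 or 5 (0.0853 and 0.0514), with values of -0.20 to -0.27 over the 12 fits.

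GALNS, which removes the sulfate of keratan sulfate, had 0.15 ± 0.06 on the log2 scale with each siRNA (adjusted p = 0.213 and 0.203). For heparan sulfate, IDUA, the iduronidase, had log2 fold changes of 0.17 ± 0.11 with siRagC1 and 0.13 ± 0.11 with siRagC2, NAGLU, the N-acetylglucosaminidase, 0.18 ± 0.08 with siRagC1 and 0.12 ± 0.08 with siRagC2, SGSH, the sulfamidase, 0.11 ± 0.06 with siRagC1 and 0.13 ± 0.06 with siRagC2, and HGSNAT, the acetyltransferase of the lysosome membrane, 0.09 ± 0.05 with siRagC1 and 0.09 ± 0.05 with siRagC2. Their adjusted p-values lay between 0.224 and 0.611. The fold changes nearest to 0 belonged to IDS, the iduronate sulfatase (0.06 ± 0.05 with siRagC1 and 0.00 ± 0.05 with siRagC2), and to GUSB, the β-glucuronidase often used as a reference gene (-0.00 ± 0.05 with siRagC1 and 0.02 ± 0.05 with siRagC2). For IDS the 95% interval ran from -0.04 to 0.16 with siRagC1 and from -0.10 to 0.10 with siRagC2, and for GUSB from -0.11 to 0.10 with siRagC1 and from -0.08 to 0.13 with siRagC2. GUSB has many pseudogene copies, of which GUSBP1 had a median count of 140.5 against 1094 for GUSB, so that reads of these copies may have been divided between them.

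Genes for glycoprotein glycans and glycogen had 2 of 8 higher with siRagC1 and 3 of 8 with siRagC2, beside 1.41% and 1.87% of all tested genes. All 8 values were positive with each siRNA (51.7% of all tested genes), with medians of 0.17 with siRagC1 and 0.21 with siRagC2. Besides NEU1, MANBA (ENSG00000109323), the β-mannosidase, rose with siRagC1, averaging 27.3 ± 3.23 CPM with siRagC1, 26.1 ± 3.98 CPM with siRagC2 and 22.3 ± 1.88 CPM with siCtrl (SD, n = 6 each). Its log2 fold change was 0.29 ± 0.07 (adjusted p = 0.0382, passing in 3 of 12 fits without 1 library) with siRagC1 and 0.23 ± 0.07 (adjusted p = 0.0867) with siRagC2. FUCA1 (ENSG00000179163), the α-fucosidase, averaged 51.5 ± 3.98 CPM with siRagC1, 52.8 ± 3.97 CPM with siRagC2 and 45.5 ± 4.46 CPM with siCtrl (SD, n = 6 each). It passed with siRagC2 (0.22 ± 0.05, adjusted p = 0.0187) and missed with siRagC1 (0.18 ± 0.05, adjusted p = 0.0628).

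AGA (ENSG00000038002) cuts the link between asparagine and the glycan. It lay between 18.8 and 20.3 CPM with siRagC1 and between 19.1 and 21.5 CPM with siRagC2, against 15.8 to 18.3 CPM with siCtrl, with no overlap. Even so the fold change was small, 0.15 ± 0.05 (adjusted p = 0.0851) with siRagC1 and 0.20 ± 0.05 (adjusted p = 0.0185) with siRagC2. GAA (ENSG00000171298), the acid α-glucosidase that degrades glycogen, had fold changes close in size to those that passed, 0.24 ± 0.08 (adjusted p = 0.122) with siRagC1 and 0.25 ± 0.08 (adjusted p = 0.0966) with siRagC2, with a wider spread. Its lowest, median and highest values were 58.3, 71.4 and 85.5 CPM with siRagC1, 66.5, 71.6 and 82.5 CPM with siRagC2, and 41.6, 65.6 and 74.0 CPM with siCtrl. The lowest GAA value came from siCtrl replicate 6, far under the other controls.

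SIAE, which removes acetyl groups from sialic acids, had log2 fold changes of 0.12 ± 0.05 (adjusted p = 0.251) with siRagC1 and 0.10 ± 0.05 (adjusted p = 0.299) with siRagC2. On the opposite strand TBRG1 covers 28.1% of its exon length, and the sources used here do not say whether counting used strand. The α-mannosidases stayed near 0, at 0.01 ± 0.05 with siRagC1 and 0.02 ± 0.05 with siRagC2 for MAN2B1 and at 0.07 ± 0.06 with siRagC1 and 0.04 ± 0.06 with siRagC2 for MAN2B2. The 95% intervals of MAN2B1 ran from -0.11 to 0.12 with siRagC1 and from -0.10 to 0.13 with siRagC2, and those of MAN2B2 from -0.06 to 0.19 with siRagC1 and from -0.08 to 0.17 with siRagC2.

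Among the genes for other lipids, 1 of 5 tested rose with siRagC1 and 2 of 5 with siRagC2, beside 1.41% and 1.87% of all tested genes. All 5 values were positive with each, as were 51.7% of all tested genes (class medians of 0.14 with siRagC1 and 0.17 with siRagC2). NPC2 (ENSG00000119655), the lumenal protein that hands cholesterol to the exporter NPC1, rose with both. It stood at 58.7, 75.4 and 84.5 CPM (lowest, median, highest) with siRagC1, 60.9, 69.6 and 77.9 CPM with siRagC2, and 50.2, 57.1 and 67.9 CPM with siCtrl. With both series pooled, the highest control, siCtrl replicate 2, overlapped the lower libraries of both siRNAs, and 4 libraries of each were above it. Within each series every siRNA library was above every control. The log2 fold change was 0.36 ± 0.07 (adjusted p = 0.00739) with siRagC1 and 0.28 ± 0.07 (adjusted p = 0.0259) with siRagC2, the second passing in 7 of 12 fits without 1 library.

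PLA2G15 (ENSG00000103066), the lysosomal phospholipase, averaged 25.9 ± 3.12 CPM with siRagC1, 28.3 ± 2.56 CPM with siRagC2 and 22.9 ± 3.45 CPM with siCtrl (SD, n = 6 each). It rose with siRagC2 (0.30 ± 0.06, adjusted p = 0.0127) and had 0.17 ± 0.06 (adjusted p = 0.157) with siRagC1. LIPA, the acid lipase for cholesteryl esters, had log2 fold changes of 0.09 ± 0.06 (adjusted p = 0.475) with siRagC1 and 0.16 ± 0.06 (adjusted p = 0.134) with siRagC2, and PPT1, which takes palmitate off proteins, 0.08 ± 0.06 (adjusted p = 0.507) with siRagC1 and 0.17 ± 0.06 (adjusted p = 0.0863) with siRagC2. The gene CAP1, at a median count of 15471 against 3941, covers 23.4% of the PPT1 exon length on the opposite strand. PLBD2, related to phospholipase B, had log2 fold changes of 0.14 ± 0.05 (adjusted p = 0.180) with siRagC1 and 0.07 ± 0.06 (adjusted p = 0.589) with siRagC2.

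The peptidase genes divided. CTSA rose with both siRNAs, TPP1 with siRagC1, and the other 3 with neither. Thus 2 of 5 were higher with siRagC1 and 1 of 5 with siRagC2, beside 1.41% and 1.87% of all tested genes. The medians of the 5 genes were 0.12 with siRagC1 and 0.05 with siRagC2. TPP1 (ENSG00000166340), which clips tripeptides from protein ends, had a lowest, median and highest value of 114, 139 and 177 CPM with siRagC1, 113, 127 and 141 CPM with siRagC2, and 113, 116 and 131 CPM with siCtrl. In 5 siRagC1 libraries it exceeded every control, and siRagC1 replicate 6 lay at the control level. Its log2 fold change was 0.28 ± 0.06 (adjusted p = 0.0148) with siRagC1 and 0.10 ± 0.06 (adjusted p = 0.346) with siRagC2. SCPEP1 (ENSG00000121064), a serine carboxypeptidase, had 34.2, 36.1 and 38.1 CPM with siRagC1, 30.5, 32.4 and 34.7 CPM with siRagC2, and 31.4, 33.0 and 35.4 CPM with siCtrl. The siRagC1 libraries lay highest, and 5 of the 6 were above every siRagC2 and every siCtrl library. Its log2 fold change was 0.12 ± 0.04 (adjusted p = 0.153) with siRagC1 and -0.05 ± 0.05 (adjusted p = 0.628) with siRagC2. PRCP, the prolylcarboxypeptidase, had log2 fold changes of -0.02 ± 0.04 with siRagC1 and 0.05 ± 0.04 with siRagC2, and GGH, which trims glutamates from folates, -0.01 ± 0.05 with siRagC1 and 0.02 ± 0.05 with siRagC2. Their 95% intervals stayed within -0.12 and 0.15.

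DNASE2 (ENSG00000105612), the acid nuclease that digests DNA in lysosomes, rose with both siRNAs, and ACP2, the lysosomal acid phosphatase, passed with neither. DNASE2 stood at 34.6, 41.9 and 54.01 CPM (lowest, median, highest) with siRagC1, 37.8, 41.9 and 51.4 CPM with siRagC2, and 24.3, 34.6 and 40.8 CPM with siCtrl. The upper controls, of D1103, overlapped the lower siRNA libraries, and siCtrl replicate 6 was the lowest by a wide gap. The log2 fold change was 0.31 ± 0.07 (adjusted p = 0.0300, in 5 of 12 fits without 1 library) with siRagC1 and 0.32 ± 0.07 (adjusted p = 0.0190, in 10 of 12) with siRagC2. ACP2 had 0.06 ± 0.06 on the log2 scale with each siRNA (adjusted p = 0.630 and 0.687).

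The hydrolase genes were also grouped by what the protein does, a grouping made after the values were seen. Of all tested genes 1.41% were higher with siRagC1 and 1.87% with siRagC2, and 0.627% and 1.36% were lower. The 3 cofactors without enzyme activity, PSAP, GM2A and NPC2, were all higher with both siRNAs, at medians of 0.27 with siRagC1 and 0.23 with siRagC2. Of 13 glycosidases 4 were higher with siRagC1 and 3 with siRagC2 (medians of 0.18 with siRagC1 and 0.13 with siRagC2), and of the 5 peptidases 2 and 1. Of the 5 sulfatases 0 were higher with either siRNA and 1, ARSB, was lower with siRagC2, at medians of 0.07 with siRagC1 and 0.13 with siRagC2. Of the 4 tested lipases and thioesterases 0 and 1 were higher (medians of 0.11 with siRagC1 and 0.17 with siRagC2).

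**Figure D4:**
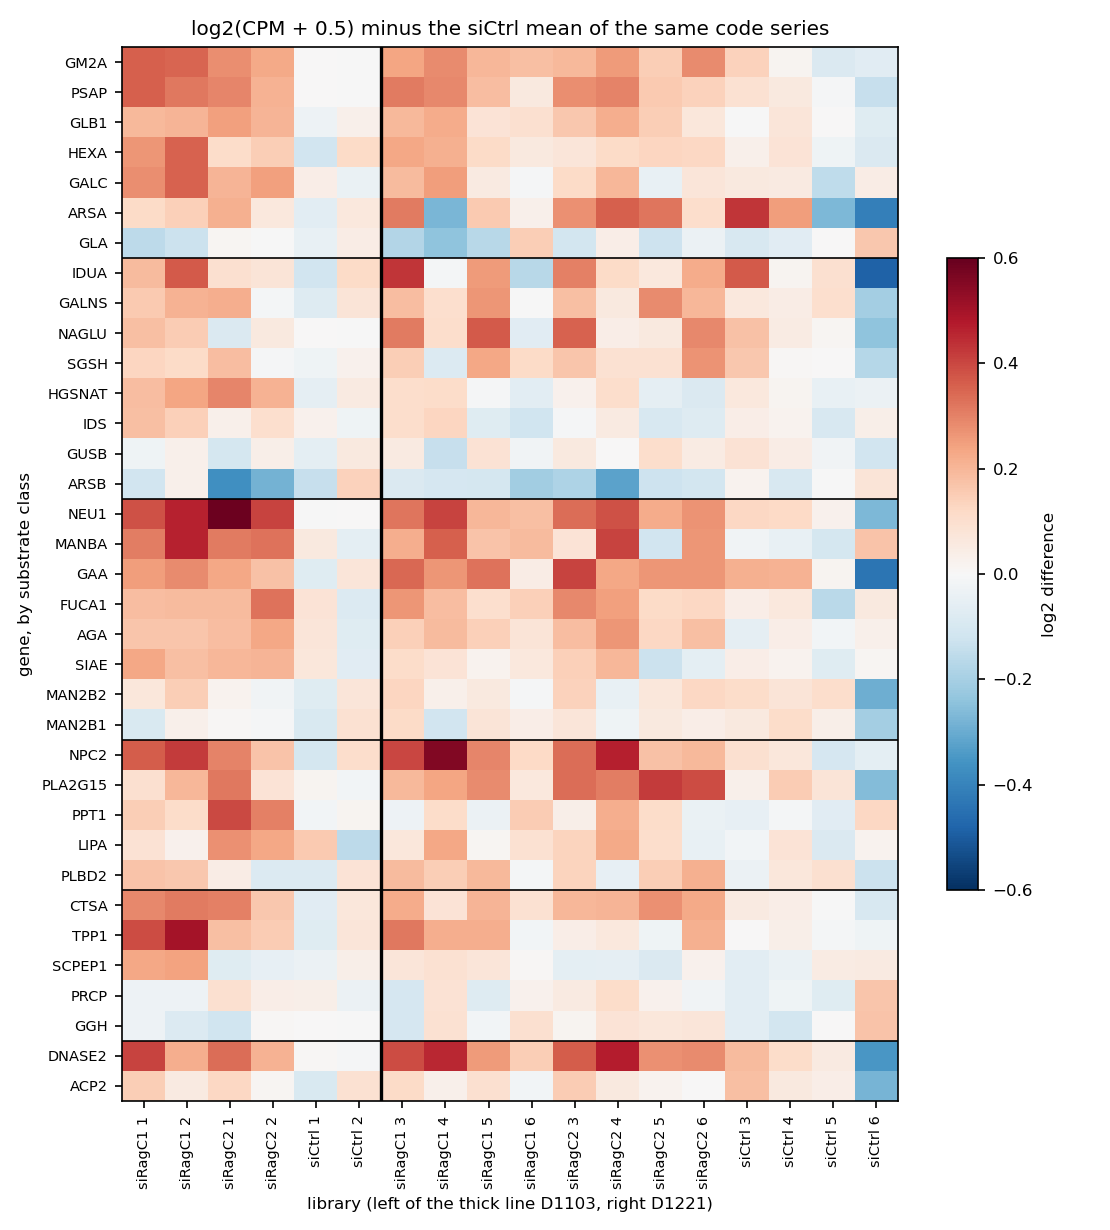
Log2(CPM + 0.5) of each tested hydrolase gene (rows, by substrate class) in each library (columns) minus the siCtrl mean of the same code series, on a colour scale from blue (lower) to red (higher), with siRagC1, siRagC2 and siCtrl from left to right within D1103 and then D1221. Most siRNA columns are red over most rows, siRagC1 replicate 6 is paler than the other siRNA columns, and siCtrl replicate 6 is blue in many rows.

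Measured against the control mean of their own series, the libraries of both siRNAs had 23 to 32 of 35 hydrolase genes above 0, with a median gene at 0.06 to 0.19 for siRagC1 and 0.10 to 0.19 for siRagC2 on the log2 scale. In the siCtrl libraries 13 to 28 genes were above 0 and the median gene lay between -0.07 and 0.05. The siCtrl libraries enter the mean they are measured against, which centres them on 0 and makes their spread look smaller. The lowest siRagC1 library in this measure was replicate 6 and the lowest siCtrl library was replicate 6, and each had the lowest CPM of its group for 19 of the 35 genes. Without siCtrl replicate 6 there were 12 genes higher with siRagC1 and 12 with siRagC2 (1.79% and 1.87% of all genes), and without siRagC1 replicate 6 there were 14 higher with siRagC1 (3.43%). Without siRagC1 replicate 4, which had the lowest mitochondrial share, 6 were higher (0.868%).

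The size of the response was compared between the code series. In D1103 the median log2 fold change of the 35 genes was 0.18 with siRagC1 and 0.16 with siRagC2, and in D1221 it was 0.12 and 0.11. RRAGC reached 12.3 to 18.8 CPM with siRagC1 and 19.3 to 21.6 CPM with siRagC2 in D1103, against 23.3 to 31.9 CPM with siRagC1 and 21.8 to 40.8 CPM with siRagC2 in D1221, and the part of this difference in the hydrolase response was not tested. The difference of each gene's effect between the series passed for 0 hydrolase genes with either siRNA in edgeR (0% of all genes), in DESeq2 and in limma-voom. At an unadjusted p under 0.05 it held for 1 hydrolase gene and 2.03% of all genes with siRagC1, and for 2 and 6.66% with siRagC2. The siRagC1 gene was TPP1 (0.44 ± 0.09 in D1103, 0.19 ± 0.06 in D1221, difference -0.25 ± 0.11, unadjusted p = 0.0335 in edgeR). The siRagC2 genes were HGSNAT (0.25 ± 0.08 in D1103 and 0.00 ± 0.06 in D1221, unadjusted p = 0.0169 in edgeR) and PPT1 (0.35 ± 0.09 in D1103 and 0.08 ± 0.06 in D1221, unadjusted p = 0.0197 in edgeR).

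Within D1103, where each group had 2 libraries, 26 of 35 genes had both siRagC1 libraries above both controls and 2 had them below, where 24.7% and 23.7% of all tested genes did so. For siRagC2 these counts were 20 and 2, against 25.4% and 24.8%. Within D1221, with 4 libraries a group, 8 genes had every siRagC1 library above every control and 0 below (2.06% and 1.65% of all genes), and 10 had every siRagC2 library above and 1 below (3.34% and 3.52%).

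**Figure D5:**
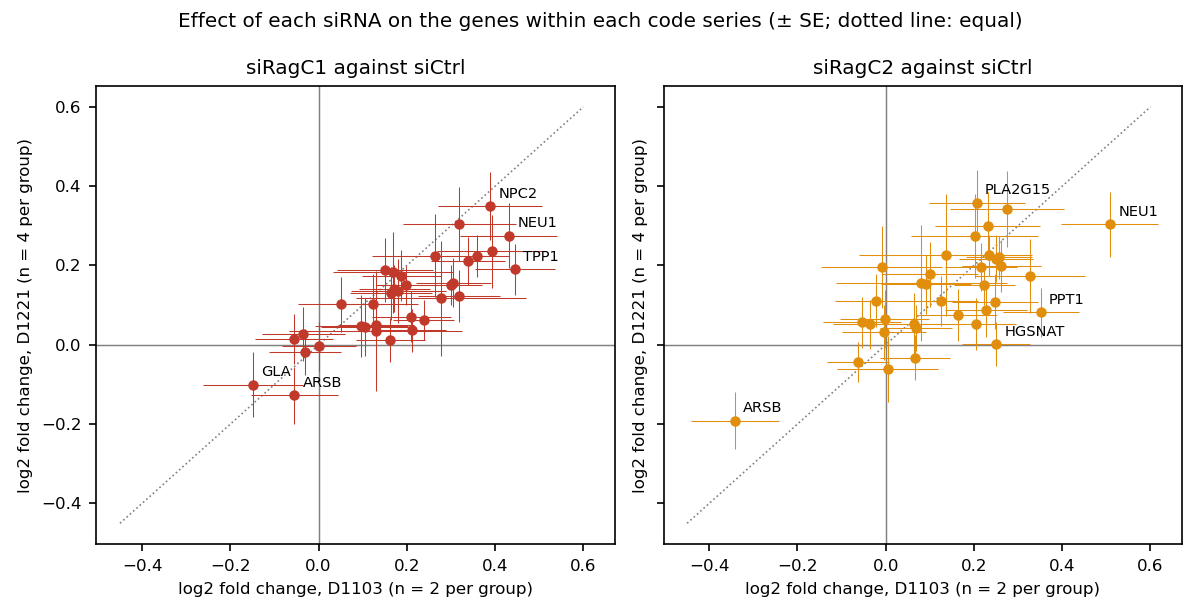
Log2 fold change of each tested hydrolase gene against siCtrl in D1103 (x axis, 2 libraries per group) and in D1221 (y axis, 4 per group), ± SE, for siRagC1 (left) and siRagC2 (right), with a dotted line of equal effect. Most genes lie at positive values in both series with overlapping errors, NEU1 reaches 0.43 and 0.51 in D1103 against 0.28 and 0.30 in D1221, and ARSB with siRagC2 lies at -0.34 and -0.19.

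Between the siRNAs, edgeR called 0 hydrolase genes and 0% of all tested genes, limma-voom 0 and 0%, and DESeq2 1 and 0.189%. At an unadjusted p under 0.05 there were 3 of 35, TPP1, SCPEP1 and ARSB, beside 7.75% of all tested genes. TPP1 was higher with siRagC1 than with siRagC2 by 0.17 ± 0.06 (95% interval 0.05 to 0.29, edgeR adjusted p = 0.413). In edgeR it passed in D1103 alone (0.28, adjusted p = 0.0354), where 1.43% of all genes did. It also passed without siRagC1 replicate 6 (0.22, adjusted p = 0.0439), where 0.513% of all genes did. SCPEP1 was higher by 0.17 ± 0.04 (95% interval 0.08 to 0.27, adjusted p = 0.344) and was the gene called by DESeq2 (adjusted p = 0.0486). ARSB was higher with siRagC1 by 0.14 ± 0.06 (95% interval 0.01 to 0.27, adjusted p = 0.605). PLA2G15 differed by -0.13 ± 0.06 (95% interval -0.27 to 0.00, adjusted p = 0.645).

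Levels of different genes were compared as CPM per 1000 bases of their main transcript (lengths from GENCODE v29). In siCtrl cells PSAP was the most abundant at 251 ± 26.5 (SD, n = 6), followed by CTSA at 93.9 ± 13.4 and by NPC2 at 55.2 ± 6.08. IDS stood at 48.1 ± 3.68, PRCP at 39.2 ± 3.96 and PPT1 at 37.0 ± 3.05, and PRCP and PPT1 differed by less than the sum of their SDs, as did NPC2 and IDS. Below PPT1 every gene and the next in order differed by less than the sum of their SDs, except SIAE and MANBA, MANBA and HEXA, and ARSB and PPT2. The least abundant were ARSA at 8.07 ± 2.53, SIAE at 7.87 ± 0.367, MANBA at 6.62 ± 0.558, HEXA at 5.44 ± 0.365 and ARSB at 4.75 ± 0.425, apart from PPT2 at 0. Of the genes that rose with both siRNAs, PSAP, CTSA and NPC2 held places 1 to 3 of 36 in this order, GLB1 place 7, DNASE2 place 17, GM2A place 24 and NEU1 place 26.

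Other genes of the same machinery were listed for comparison. Of 20 further lumenal hydrolases 6 were higher with siRagC1 and 4 with siRagC2, with 0 lower and medians of 0.13 with siRagC1 and 0.13 with siRagC2. All tested genes had 1.41% and 1.87% higher, 0.627% and 1.36% lower, and medians of 0.0051 and 0.00465. ASAH1, the acid ceramidase, rose on the log2 scale by 0.34 ± 0.05 (adjusted p = 0.00236) with siRagC1 and 0.32 ± 0.06 (adjusted p = 0.00352) with siRagC2. ACP5, an acid phosphatase of osteoclasts and macrophages, rose on the log2 scale by 1.5 ± 0.34 (adjusted p = 0.0274) with siRagC1 and 1.37 ± 0.36 (adjusted p = 0.0358) with siRagC2 at a low level, with a mean of 0.938 CPM with siRagC1, 0.877 CPM with siRagC2 and 0.346 CPM with siCtrl.

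Of 14 genes for enzyme sorting and maturation, 3 were higher with siRagC1 and 1 with siRagC2, with 0 lower and medians of 0.16 with siRagC1 and 0.12 with siRagC2. All tested genes had 1.41% and 1.87% higher, and 0.627% and 1.36% lower. IGF2R, the large receptor for mannose phosphate, had log2 fold changes of 0.21 ± 0.05 (adjusted p = 0.0300) with siRagC1 and 0.17 ± 0.05 (adjusted p = 0.0674) with siRagC2. GNPTAB, which starts the mannose phosphate tag, had log2 fold changes of 0.26 ± 0.06 (adjusted p = 0.0249) with siRagC1 and 0.10 ± 0.06 (adjusted p = 0.400) with siRagC2, and its partner subunit GNPTG 0.19 ± 0.07 (adjusted p = 0.130) with siRagC1 and 0.24 ± 0.07 (adjusted p = 0.0461) with siRagC2. SUMF1, which activates all sulfatases, had log2 fold changes of 0.23 ± 0.06 (adjusted p = 0.0488) with siRagC1 and 0.13 ± 0.06 (adjusted p = 0.262) with siRagC2. Among the tested MiT/TFE factors TFEB, TFE3 and MITF, 1 was lower with siRagC1, MITF (-0.35 ± 0.07, adjusted p = 0.0166), and 0 were called with siRagC2, where MITF had -0.19 ± 0.07 (adjusted p = 0.163).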

How the data were processed

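RNA of the 18 libraries was sequenced, from 500 ng each per the labels, and the values used are the raw counts per gene that the authors deposited. The submitters' processing notes name cutadapt 0.6.2, STAR 2.7.6a and the build GRCh37/hg19. No source used here gives the counting tool, the strand setting or the annotation release. Groups and replicate numbers came from the labels, which do not tie libraries of the same number to each other.

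Counts were tested with the robust quasi-likelihood test of edgeR 4.0.16 in R 4.3.3, after filterByExpr by group and TMM scaling, with group and code series as terms over all libraries, Benjamini-Hochberg adjustment over 15307 genes and a threshold of 0.05. CPM used TMM-scaled library sizes, and the heat map a pseudocount of 0.5. The interval on a fold change is the estimate ± 2.14 SE. Between replicates of a group, the chi-square per degree of freedom was 2.73 to 74.9 over 45 pairs, all above counting noise.

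The scripts were tested on simulated data for siRagC1 against siCtrl. Of 100 genes changed 1.2-fold 51 were recovered, and of 50 changed 1.5-fold 48 were. Of 152 calls 3 were false. A gene not called here may thus still have changed by a small amount. Alternatives were RLE factors, other filters, DESeq2 1.42.0, limma-voom 3.58.1, the replicate block, no series term, single series, single libraries left out and an adjusted p under 0.01.

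Named in full are genes past the threshold with both siRNAs or lower with either, genes that differ most between the siRNAs, and up to 4 called genes of each other list. The results of some genes that this rule names are not reported here. SCPEP1 and the genes called with 1 siRNA were added after their values were seen. The genes and lists were chosen with earlier results of these data known. Promoter sequences are from RefSeq. The marker PECAM1 was not matched to the table.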

Additional observations from a re-analysis of the deposited data

Results flagged for a closer look

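Of 105 groups of 6 libraries tested for a value standing apart from the rest, 3 did, where chance gives about 1 in 20. GLA was 27.0 CPM in siRagC1 replicate 6, the highest of its group, where the next library had 21.6 CPM. PLA2G15 was 33.2 CPM in siRagC2 replicate 1, where the next had 28.2 CPM. TPP1 was 131 CPM in siCtrl replicate 2, where the next control had 118 CPM.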

How the results depend on the processing

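RLE factors, no filter, a filter of 5 CPM in 6 libraries, limma-voom and DESeq2 kept the counts higher against siCtrl within 1.5 times of those reported, and 0 called values changed sign in any alternative. Without the series term, 1 gene was higher with siRagC1 (0.0392% of all genes) and 1 with the mean of both siRNAs (0.216%). There siRagC2 had 0 higher (0.0784%) and 0 lower (0.0457%). With D1221 alone the counts were 0 higher with siRagC1 (0% of all genes) and 0 with the mean (0.04%). For siRagC2 they were 0 higher (0.00666%) and 0 lower (0%). At an adjusted p under 0.01, 3 were higher with siRagC1 (0.301% of all genes), 3 higher (0.412%) and 0 lower with siRagC2, and 7 higher with the mean (0.817%). The mean of both siRNAs had 1 lower gene with DESeq2, limma-voom and the replicate block (4.15%, 2.95% and 4.1% of all genes). Between the siRNAs 1 gene was higher with siRagC1 in DESeq2 (0.118% of all genes) and 1 in D1103 alone (0.828%). Leaving out 1 library gave 4 to 14 higher (0.434% to 3.43% of all genes) and 0 to 1 lower (0.079% to 2.44%) with siRagC1. The range was 5 to 12 higher (0.804% to 2.4%) and 0 to 1 lower (0.46% to 1.74%) with siRagC2. It was 9 to 15 higher (1.16% to 3.75%) and 0 to 1 lower (0.585% to 3.04%) with the mean. Between the siRNAs it was 0 to 1 (0% to 0.513%). With the replicate number as a block, siRagC1 had 13 higher and 0 lower (3.29% and 2.36% of all genes), siRagC2 12 and 1 (3.66% and 2.78%), and the mean 15 and 1 (4.74% and 4.1%). Residuals of same-numbered libraries correlated at 0.0765 to 0.610 over the pairs of groups, and at -0.0733 to 0.464 once the code series was removed. A library correlated best with its own number in 7 of 36 cases, and the labels tie no libraries, so the main fit did not pair them. Whether same-numbered libraries share a source was not tested. The block fit called more of all genes higher than the main fit did (1.41% with siRagC1 and 1.87% with siRagC2). Over the 22 alternatives the calls of single genes were lost 64 times and gained 20 times with siRagC1, and lost 55 times and gained 14 times with siRagC2. The cause was not tested. Every tested gene held 193 counts (ARSA in siCtrl replicate 6) or more in each library.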
